A study of Capra hircus with 9 samples.

Results

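Goat embryos at the 8-cell stage that were made by somatic cell nuclear transfer (SCNT-8c) were compared with 2-cell embryos from in vitro fertilization (IVF-2c). The members of the comparison were the transcripts with at least 10 FPKM (fragments mapped to a transcript, relative to its length and to all mapped fragments of the library) in at least 1 of the 2 libraries, which came to 6096 of 30147 mRNA transcripts (20.2%) and 2474 of 36240 lncRNA transcripts (6.83%). The series held 9 libraries, of which the 6 from transfected goat fetal fibroblasts were not used. Each embryo group was 1 library of 15 pooled embryos, so no spread between replicates exists, no test was run, and every ratio compares a pair of libraries. IVF-2c embryos came from in vitro matured oocytes and sperm and were collected at the 2-cell stage. SCNT-8c embryos came from enucleated oocytes that had received the nucleus of a cultured fetal fibroblast, per the study's methods from a female fetus of a Saanen dairy goat, while the labels describe the sequenced fibroblasts as coming from the ear margin. All embryos were goat (Capra hircus), none carried a transgene or a deletion that the labels name, and the sex of the IVF embryos is not given. Stage and embryo origin differ together between the 2 libraries and cannot be told apart. For that reason the values of the third embryo library, IVF at the 8-cell stage (IVF-8c), are set beside many of the named transcripts, though not all. Where no IVF-8c value is given, only the 2 compared libraries are described.

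In mammals the first cleavages run on RNA and protein that the oocyte stored, while the embryonic genome is nearly silent. The stored RNA is then degraded, in part by removal of its poly(A) tail, and the embryonic genome is switched on, a step called embryonic genome activation (EGA) that in the goat has its major wave at the 8-cell stage. After nuclear transfer the same step has to start from the chromatin of a differentiated cell, and it is known to be incomplete in many SCNT embryos.

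FPKM relates each transcript to the total of its own library, and 1 transcript set the IVF-2c library apart. The mRNA accession XM_013971491.1, for which no gene name was found, had 391451 FPKM in IVF-2c, 28.0% of the mRNA total, and was listed at 0 in the other 2 embryo libraries. Total mRNA FPKM was 1084391 in SCNT-8c and 1395697 in IVF-2c, or 1004246 in IVF-2c without that transcript, beside 1128122 in IVF-8c. Oocyte transcripts such as GDF9 and BMP15, both growth factors secreted by the oocyte, were present in all 3 libraries, BMP15 with 473 FPKM in IVF-2c and 227 in SCNT-8c. Of the fibroblast markers, 20 of 41 genes were found in the table, and their summed level was 171 FPKM in IVF-2c, 128 in SCNT-8c and 117 in IVF-8c. DCN, the matrix proteoglycan decorin, was the most abundant of them with 114, 54.1 and 54.1 FPKM in the same order, and the collagen gene COL1A2 stood at 2.12, 3.46 and 2.51 FPKM. Without DCN the sums were 54.0 FPKM in IVF-2c, 70.3 in SCNT-8c and 60.8 in IVF-8c, so that the order of IVF-2c and SCNT-8c turned. Of the 33 transcripts on the list, 10 had at least 1 FPKM in IVF-2c, 15 in SCNT-8c and 13 in IVF-8c, and 17, 8 and 7 were listed at 0. The part of such cells in the differences was not tested.

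Most mRNAs lay within a 4-fold range between SCNT-8c and IVF-2c, and more of those outside it were higher in SCNT-8c. The ratio used throughout is the log2 ratio of FPKM + 1 in SCNT-8c to FPKM + 1 in IVF-2c, and the limit is an absolute log2 ratio above 2. Higher in SCNT-8c by this limit were 456 mRNA members (7.48%), and lower were 181 (2.97%), so that 71.6% of the mRNAs past the limit were higher. At a log2 limit of 1 instead, 856 were higher and 1273 lower, so that the larger side changed. Within the limit of 2 lay the other 5459 (89.6%), and 3967 (65.1%) lay within a log2 ratio of 1 in either direction. The median log2 ratio was -0.30, with quartiles at -0.89 and 0.39, so the typical mRNA was slightly lower in SCNT-8c while the upper tail was the longer one. The addition of 1 to each FPKM understates the ratio of low transcripts. In a pool of whole embryos, fewer cells with a transcript and less of it per cell cannot be told apart.

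The zero point of these ratios depended on how the libraries were scaled. With each library divided by its median ratio over the 18245 mRNAs above 0 in all 3 embryo libraries (factors of 1.20 for IVF-2c and 0.950 for SCNT-8c), all log2 ratios moved up by 0.34 before the addition of 1, and the median became 0.09. The counts were then 538 higher and 82 lower, and 86.8% of the mRNAs past the limit were higher. For this reason gene groups are given below as counts past the limit and by their median relative to the median of all mRNA members. Only members with a gene name can be on a list, and their median was -0.23, against -0.37 for members without a name. Of all mRNA members, 649 reached 10 FPKM in SCNT-8c alone and 1111 in IVF-2c alone, and each lies on that side by construction.

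**Figure D1:**
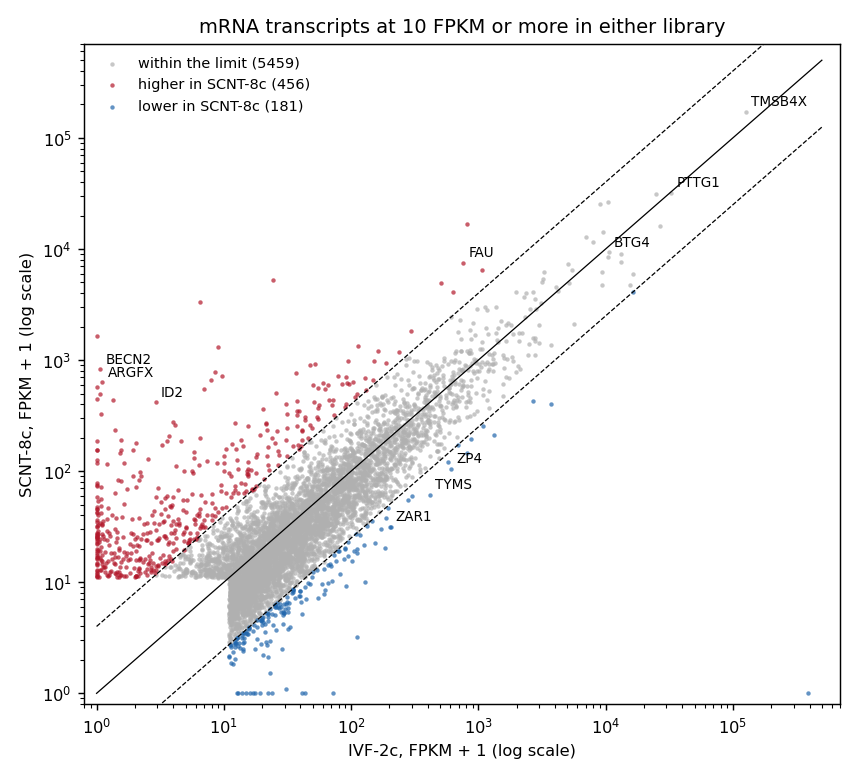
FPKM + 1 of the 6096 mRNA members in IVF-2c (x axis) and SCNT-8c (y axis), both on log scales, with 1 point per transcript, the solid line at equality and the dashed lines at the 4-fold limit. Of the 456 mRNAs above the upper line 46 were listed at 0 in IVF-2c, and of the 181 below the lower line, ZAR1 and ZP4 among them, 11 were listed at 0 in SCNT-8c.

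The medians and the shares past the limit are given next by the level of the mRNA. Among the 3237 mRNAs with a mean of up to 30 FPKM over the 2 libraries the median log2 ratio was -0.42, and 8.31% were higher and 3.89% lower. Among the 1673 between 30 and 100 FPKM the median was -0.26, and 5.50% were higher and 2.15% lower. Among the 1070 between 100 and 1000 FPKM the median was -0.06, and 8.13% were higher and 1.40% lower. The 116 mRNAs above 1000 FPKM had a median of 0.01, and 6.90% were higher and 3.45% lower. The median thus rose with the level in these unscaled values, and its distance from 0 depends on the scaling. The share of higher mRNAs was lowest between 30 and 100 FPKM. In the higher group, 46 of the 456 mRNAs (10.1%) were listed at 0 in IVF-2c, and in the lower group 11 of the 181 (6.08%) were listed at 0 in SCNT-8c. A listed 0 can be a failed estimate in such files, and no ratio is printed for these transcripts. Their ratios of FPKM + 1 still enter the counts, medians, rankings and figures. A member listed at 0 in 1 of the 2 libraries is past the limit by construction, since it must hold at least 10 FPKM in the other. At the minimum itself stood XM_013976086.1 with 10.004 FPKM in IVF-2c and 9.64 in SCNT-8c just inside it, and KXD1 with 9.999 and 8.35 just outside.

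The named mRNAs with the largest ratios were nearly absent from the IVF-2c library and abundant in SCNT-8c. BECN2, a relative of the autophagy gene BECN1, had 0.0652 FPKM in IVF-2c and 828 in SCNT-8c (log2 ratio 9.60), beside 902 in IVF-8c. ARGFX, a homeobox gene known from preimplantation embryos, had 0.106 and 628 FPKM (log2 ratio 9.15), beside 843 in IVF-8c. ID2, an inhibitor of basic helix-loop-helix transcription factors, had 1.91 and 419 FPKM (log2 ratio 7.17), beside 806 in IVF-8c. These genes had their high level in both 8-cell libraries, and all 3 were lower in SCNT-8c than in IVF-8c.

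SUPT4H1, ATF1 and HNRNPA2B1 were also among the 10 largest ratios. SUPT4H1, a subunit of the DSIF factor that acts on RNA polymerase II during elongation, had 1.02 FPKM in IVF-2c, 178 in SCNT-8c and 322 in IVF-8c, a log2 ratio of 6.47. ATF1, a transcription factor of the CREB family, had 3.17, 259 and 401 FPKM in the same order for its most divergent transcript, a log2 ratio of 5.96, and its other member transcripts had 2.65 and 2.43. HNRNPA2B1, which encodes a nuclear RNA-binding protein, had 0.469, 82.1 and 133 FPKM for its most divergent transcript (log2 ratio 5.82), with 2.25 and 2.17 for the other members. Each of these 3 transcripts lay lower in SCNT-8c than in IVF-8c, and with 1 library each that difference has no replicate check.

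The remaining genes of the 10 largest ratios had other roles. TM4SF1, a membrane protein of the transmembrane 4 superfamily, had 0.214 FPKM in IVF-2c, 116 in SCNT-8c and 210 in IVF-8c (log2 ratio 6.59). CRABP1, which binds retinoic acid in the cytoplasm, had 0.545, 153 and 127 FPKM (log2 ratio 6.64) and was 1 of 2 among the 10 with a higher level in SCNT-8c than in IVF-8c. The other was BEX5, listed at 0 in IVF-2c, with 57.1 FPKM in SCNT-8c and 41.6 in IVF-8c. For RPS24, a protein of the small ribosomal subunit, transcript XM_005699248.2 stood at 0.394 and 233 FPKM (log2 ratio 7.39), while XM_005699253.2 had 41.3 and 46.8 FPKM (log2 ratio 0.18). The RPS24 ratio was thus that of 1 transcript, and FPKM of transcripts of 1 gene are estimates that divide shared fragments.

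**Figure D2:**
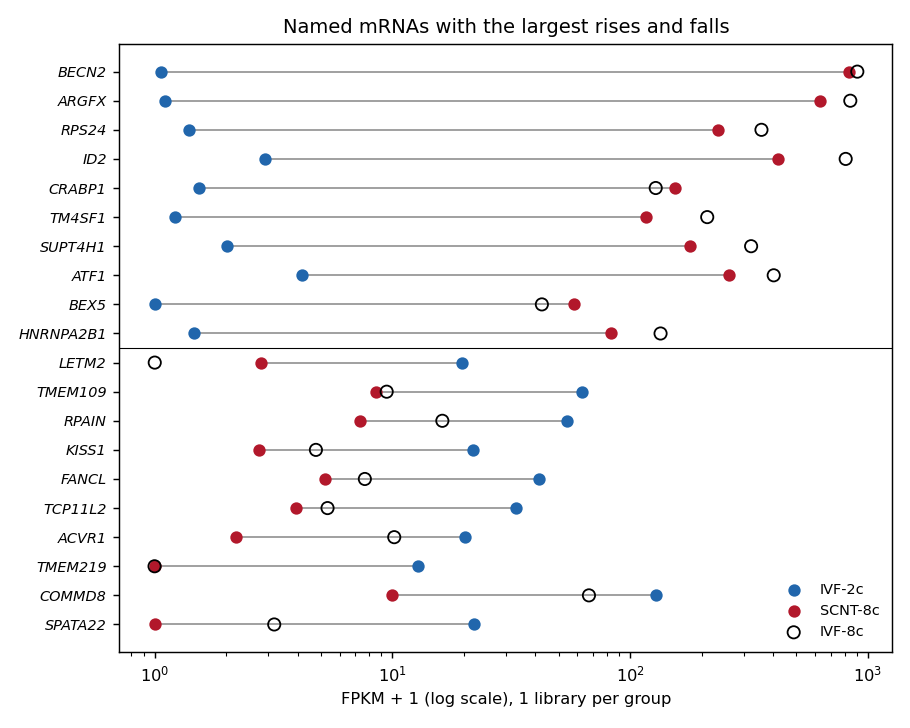
FPKM + 1 on a log scale in IVF-2c (blue), SCNT-8c (red) and IVF-8c (open circles) for the 10 named mRNAs with the largest log2 ratios of SCNT-8c to IVF-2c (upper block) and the 10 with the smallest (lower block), 1 library per group. Above the line the open circle lies right of the red point for all genes but CRABP1 and BEX5. Below the line IVF-8c lies between the other libraries for all genes but LETM2 and TMEM219. Each gene is ranked by its transcript with the largest absolute ratio, so CNPY2, with another transcript at -3.78, is not in the lower block.

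On the lower side the ratios were smaller and the genes had varied roles. Several of these ratios are of 1 transcript of a gene whose other members lay within the limit. For SPATA22, a gene of meiotic recombination, XM_005693405.1 was listed at 0 in SCNT-8c, compared with 2.19 FPKM in IVF-8c and 21.1 in IVF-2c. Its most abundant transcript, XM_005693402.1, had 417 FPKM in IVF-2c and 282 in SCNT-8c (log2 ratio -0.56), and XM_013972128.1 had 8.12 and 14.6 (log2 ratio 0.77). COMMD8, of the COMMD family, had 128 FPKM in IVF-2c, 8.98 in SCNT-8c and 66.1 in IVF-8c (log2 ratio -3.69). ACVR1, a type I receptor of bone morphogenetic proteins, had 19.3, 1.21 and 9.19 FPKM in the same order (log2 ratio -3.20). COMMD8 and ACVR1 both stood more than 4-fold lower in SCNT-8c than in IVF-2c, and their IVF-8c level was closer to IVF-2c than to SCNT-8c on the log scale.

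For other transcripts the levels in both 8-cell libraries were low. TMEM219 had 11.9 FPKM in IVF-2c and 0.00061 in SCNT-8c (log2 ratio -3.68) and was listed at 0 in IVF-8c. FANCL, the ubiquitin ligase subunit of the Fanconi anaemia core complex, had 40.4 FPKM in IVF-2c, 4.19 in SCNT-8c and 6.66 in IVF-8c for XM_013967673.1 (log2 ratio -3.00), while its more abundant transcript XM_005686628.1 had 99.0 and 91.4 FPKM in IVF-2c and SCNT-8c (log2 ratio -0.11). RPAIN, which takes part in the nuclear import of replication protein A, had 53.5, 6.29 and 15.2 FPKM for XM_005693440.2 (log2 ratio -2.90), and its other member had 76.7 and 24.9 FPKM (log2 ratio -1.58). KISS1, the kisspeptin precursor, TCP11L2, TMEM109 and LETM2 completed the 10, with log2 ratios of -3.00, -3.07, -2.87 and -2.80. The other member transcripts of TMEM109 and LETM2 had log2 ratios of -0.49 and -0.20.

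Maternal transcripts of the oocyte were lower in SCNT-8c, most by less than the limit. Of 50 listed oocyte and maternal-effect genes, 19 were found in the table, and 20 transcripts of 17 genes were members, 18 of them with at least 10 FPKM in both libraries. Past the limit were 2 lower and 0 higher. Their median log2 ratio was -1.06, which is 0.76 below the median of all mRNA members, and 18 of the 20 lay below that median. ZAR1, needed for the transition from oocyte to embryo, had 202 FPKM in IVF-2c, 30.7 in SCNT-8c and 27.2 in IVF-8c (log2 ratio -2.68). ZP4, a glycoprotein of the zona pellucida, had 606, 104 and 138 FPKM (log2 ratio -2.53). ZAR1 and ZP4 thus stood far lower in both 8-cell libraries than in IVF-2c.

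Within the limit stood ZP2, another zona glycoprotein, with 682 FPKM in IVF-2c and 200 in SCNT-8c (log2 ratio -1.77). NPM2, a histone chaperone of the egg, had 470 and 150 FPKM (log2 ratio -1.64). WEE2, the oocyte kinase that inhibits CDK1, had 233 and 75.6 FPKM (log2 ratio -1.61), and MOS, the kinase that holds the egg in metaphase, had 1724 and 690 (log2 ratio -1.32). Unlike these, BTG4, an adaptor of the deadenylase that removes poly(A) tails from maternal mRNA, differed little, with 10551 FPKM in IVF-2c, 9371 in SCNT-8c and 7830 in IVF-8c. Its log2 ratio was -0.17, and 0.16 after scaling, so that its direction depended on the scaling.

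Of the genes known from genome activation, few were found in the table. Of 35 listed genes, 10 were found in the table with 13 transcripts, and 7 of the 13 were past the limit, each higher in SCNT-8c. Of all 30147 mRNA transcripts in the table, without a minimum, 2.15% were higher and 0.899% lower. The count of 7 of 13 was taken without the minimum too. Among members it was 7 of 8, and all 7 became members by reaching 10 FPKM in SCNT-8c alone. The share among members thus follows in part from the minimum. The list was chosen with earlier results of these data known, so neither count is support for a direction. KLF17, a zinc-finger transcription factor, was listed at 0 in IVF-2c and had 46.2 FPKM in SCNT-8c and 87.6 in IVF-8c. DPPA2, a chromatin protein of pluripotent cells, had 0.654 FPKM in IVF-2c, 10.4 in SCNT-8c and 34.7 in IVF-8c (log2 ratio 2.78). EIF1AX, a translation initiation factor often used as a marker of EGA in ruminants, had 46.99, 96.9 and 231 FPKM in the same order, and its log2 ratio of 1.03 lay within the limit. Below 10 FPKM in both libraries were 5 transcripts, among them PDCL2 with 0.427 and 1.13 FPKM.

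The pluripotency and early lineage regulators that could be measured were few. Of 48 listed genes, 13 were in the table and 6 transcripts were members, 4 of which reached 10 FPKM in SCNT-8c alone. Those 4, ID2, KLF17, ID1 and KLF3, were past the limit, against 7.48% of all mRNA members that were higher. This count follows in part from the minimum and is no support for a direction. ID1, a relative of ID2, had 4.001 FPKM in IVF-2c, 41.5 in SCNT-8c and 66.9 in IVF-8c (log2 ratio 3.09). SOX15 had 19.9 and 49.2 FPKM (log2 ratio 1.27), and STAT3, a transcription factor of cytokine signalling, had 16.9 and 7.19 (log2 ratio -1.13). NANOG and SOX2, core factors of pluripotency, stayed under 2 FPKM in both libraries, at 0.0934 and 1.90 in SCNT-8c.

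Messenger RNAs of the cytosolic ribosome had the highest median ratio among the lists with more than 10 members. Of 82 ribosomal protein genes, 59 were in the table and 66 transcripts of 58 genes were members, of which 63 had at least 10 FPKM in both libraries. Past the limit were 24 (36.4%) higher and 0 lower, against 7.48% and 2.97% of all mRNA members. Their median log2 ratio of 1.32 was 1.62 above the median of all mRNA members, and 60 of the 66 lay above that median. The summed FPKM of the list's transcripts was 15841 in IVF-2c, 39894 in SCNT-8c and 50124 in IVF-8c. Ribosomal protein genes have near-identical processed copies in mammalian genomes, and how fragments were shared between such copies is not given in the sources used here, so single values are uncertain.

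Both ribosomal subunits were represented among the higher transcripts. RPL26, of the large subunit, had 46.7 FPKM in IVF-2c, 900 in SCNT-8c and 998 in IVF-8c (log2 ratio 4.24). FAU, whose product is a fusion of a ubiquitin-like protein with a small-subunit protein, had 759, 7492 and 12915 FPKM (log2 ratio 3.30). RPS3A of the small subunit had 58.8, 626 and 520 FPKM (log2 ratio 3.39). RPL22L1, a paralogue of RPL22, had 5.39, 113 and 108 FPKM (log2 ratio 4.15). The group was not uniform, since the most abundant of 3 RPL27 transcripts stood at 389 and 211 FPKM (log2 ratio -0.88, with -0.35 and 0.15 for the others), RPS3 at 322 and 233 (log2 ratio -0.47), and RPLP0 at 221 and 160 (log2 ratio -0.46). The most abundant transcript of the list in IVF-2c, that of RPS20, had 1494 FPKM there and 2262 in SCNT-8c.

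**Figure D3:**
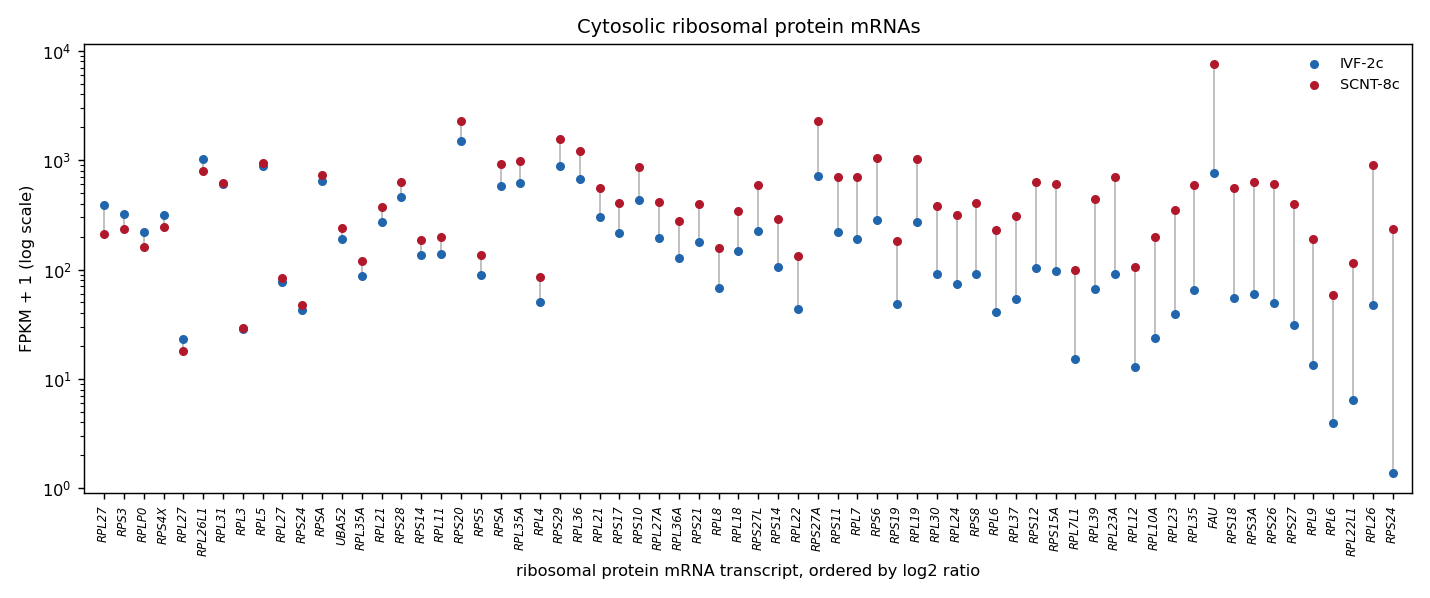
FPKM + 1 on a log scale of the 66 cytosolic ribosomal protein transcripts that were members, in IVF-2c (blue) and SCNT-8c (red), ordered from the smallest to the largest log2 ratio, with a gene shown more than once where it has several transcripts. The red point lies above the blue one for 60 of the 66, and the distance ranges from a log2 ratio of -0.88 for RPL27 to 7.39 for RPS24.

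Other parts of the translation machinery differed from this. The mitochondrial ribosomal proteins had 51 of 77 genes in the table and 52 members from 46 of them. Past the limit were 1 higher and 1 lower (1.92% each), against 7.48% and 2.97% of all mRNA members. Of the 52, 4 reached 10 FPKM in SCNT-8c alone and 7 in IVF-2c alone, so that these counts follow in part from the minimum. The list median lay 0.16 above that of all mRNA members, or 0.29 above it with FPKM summed per gene. MRPL30 was the higher one, with 2.32 FPKM in IVF-2c and 34.1 in SCNT-8c (log2 ratio 3.40), and 1 of 4 MRPL52 members the lower, with 14.2 and 2.42 FPKM (log2 ratio -2.16, and -1.86 after scaling), the other 3 lying between -0.99 and -0.58. Among 40 members for ribosome biogenesis, 5 (12.5%) were higher and 0 lower, and their median lay 0.69 above that of all members. Of the 40, 3 reached 10 FPKM in SCNT-8c alone and 3 in IVF-2c alone, so that these counts follow in part from the minimum. NOP10 and NHP2, both proteins of the box H/ACA particles that guide pseudouridylation of ribosomal RNA, had 160 and 17.2 FPKM in IVF-2c against 1205 and 140 in SCNT-8c (log2 ratios 2.90 and 2.96). WDR12, a factor of large-subunit assembly, had 0.480 and 15.9 FPKM (log2 ratio 3.52).

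Translation initiation factors had 3 of 23 members higher (13.0%) and 0 lower, against 7.48% and 2.97% of all mRNA members. Of the 23, 2 reached 10 FPKM in SCNT-8c alone, EIF1AD among them, and 2 in IVF-2c alone. These counts thus follow in part from the minimum. The list median lay 0.52 above that of all members. The 3 higher transcripts belonged to 2 genes. EIF6, which keeps the ribosomal subunits apart, had 18.2 FPKM in IVF-2c, 212 in SCNT-8c and 286 in IVF-8c for XM_005688491.2 (log2 ratio 3.47), and 10.3, 58.1 and 85.5 for XM_005688492.2 (log2 ratio 2.39). EIF1AD had 1.15, 14.8 and 15.7 FPKM (log2 ratio 2.88).

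**Figure D4:**
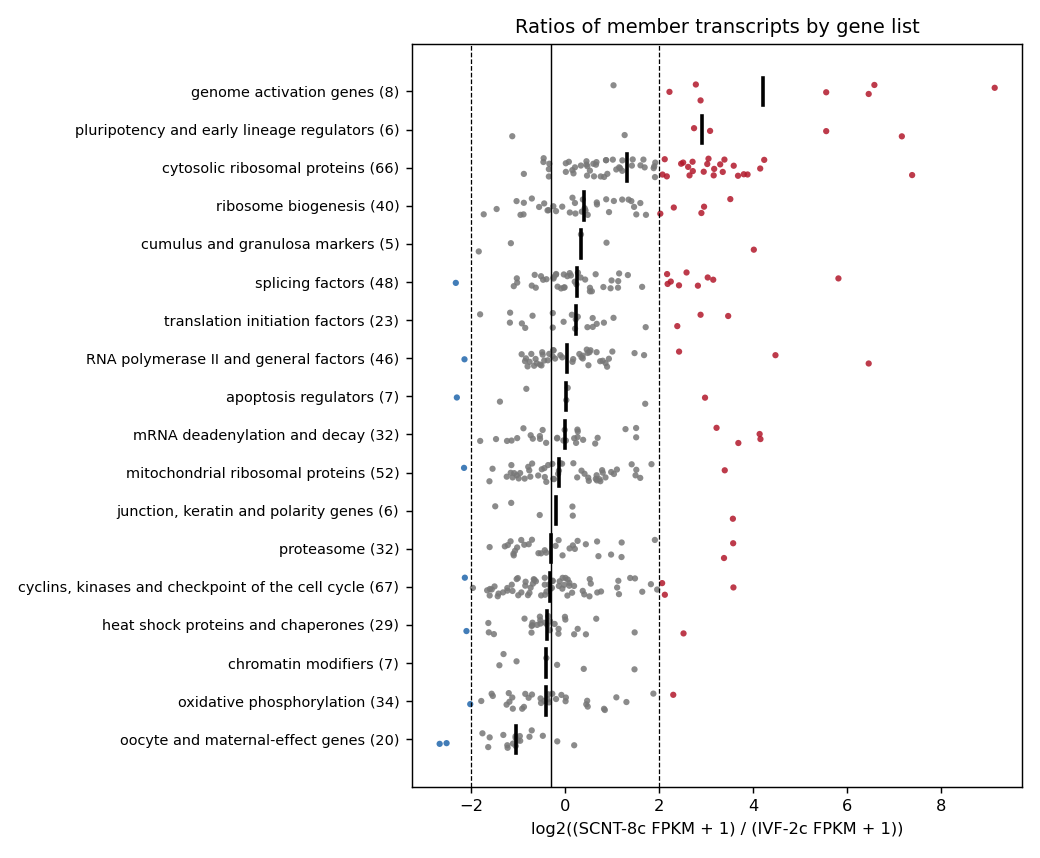
Log2 ratios of SCNT-8c to IVF-2c (x axis) for the members of 18 gene lists with at least 5 members, 1 point per transcript, with the number of members in parentheses, red and blue points past the limit, thick bars at list medians, the solid line at the median of all mRNA members (-0.30) and dashed lines at the limit. Cytosolic ribosomal proteins extend to the right of the solid line and oocyte and maternal-effect genes to its left, while most other lists straddle it.

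Splicing factors had a larger share of higher transcripts than mRNAs as a whole. Of 48 splicing members, 9 (18.8%) were higher and 1 (2.08%) lower, against 7.48% and 2.97% of all mRNA members. The median lay 0.55 above that of all mRNA members. Of the 48, 5 reached 10 FPKM in SCNT-8c alone, so that the count of higher transcripts follows in part from the minimum. SRSF3, a serine/arginine-rich splicing factor, had 50.03 FPKM in IVF-2c, 417 in SCNT-8c and 557 in IVF-8c (log2 ratio 3.04). SF3B5, a small subunit of the U2 snRNP complex SF3B, had 60.9, 549 and 557 FPKM (log2 ratio 3.15). Another subunit of the same complex, SF3B1, gave the 1 lower transcript, with 10.03, 1.19 and 13.1 FPKM (log2 ratio -2.33), while its more abundant transcript XM_005676299.2 had 30.7 FPKM in IVF-2c and 30.03 in SCNT-8c (log2 ratio -0.03). Transcripts of HNRNPA2B1, SF3B5 and SRSF10 appear more than once among the 9, so that the count is of transcripts and not of genes.

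For RNA polymerase II and its general factors, 3 of 46 members (6.52%) were higher and 1 lower, close to the shares of all mRNA members. Of the 46, 6 reached 10 FPKM in SCNT-8c alone and 5 in IVF-2c alone, so that these counts follow in part from the minimum. Beside SUPT4H1 the higher ones were MED31, a Mediator subunit, with 11.2 FPKM in IVF-2c and 270 in SCNT-8c (log2 ratio 4.48), and POLR2I, a polymerase subunit, with 17.0 and 95.9 (log2 ratio 2.43). GTF2H5, a subunit of the factor TFIIH, gave the lower one, with 11.3 and 1.79 FPKM (log2 ratio -2.15, and -1.86 after scaling), while its abundant transcript XM_005684941.2 had 707 and 428 FPKM (log2 ratio -0.72). The list of mRNA deadenylation and decay had 4 of 32 members higher (12.5%) and 0 lower, against 7.48% and 2.97% of all mRNA members. Of the 32, 7 reached 10 FPKM in SCNT-8c alone, so that this count follows in part from the minimum. Of the 4 higher ones, EXOSC1, a subunit of the RNA exosome, had 19.3 and 358 FPKM (log2 ratio 4.14). BTG3 and BTG1, relatives of BTG4, had 4.61 and 3.80 FPKM in IVF-2c against 99.2 and 43.8 in SCNT-8c (log2 ratios 4.16 and 3.22), and XM_013965718.1 of CNOT8, a deadenylase of the CCR4-NOT complex, was listed at 0 in IVF-2c and had 11.9 FPKM in SCNT-8c. The other CNOT8 members had 19.5 FPKM in IVF-2c and 9.07 in SCNT-8c (log2 ratio -1.02), and 8.23 and 11.02 (log2 ratio 0.38).

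Cell cycle regulators lay around the middle of all mRNAs. Of 67 members, 3 (4.48%) were higher and 1 (1.49%) lower, against 7.48% and 2.97% of all mRNA members. Of the 67, 4 reached 10 FPKM in SCNT-8c alone and 4 in IVF-2c alone, so that these counts follow in part from the minimum. The list's median differed from that of all members by -0.02, or by -0.22 with FPKM summed per gene. PTTG1, the securin that holds separase inactive, was among the most abundant mRNAs in both libraries, with 32483 FPKM in IVF-2c and 31961 in SCNT-8c. GMNN, the replication inhibitor geminin, was past the limit with 2 of 5 member transcripts, the more abundant having 106 FPKM in IVF-2c and 463 in SCNT-8c (log2 ratio 2.12), and the log2 ratios of the other 3 lay between 1.13 and 1.82. CDK1, the mitotic kinase, had 1 of 4 members past the limit, with 4.83 and 23.4 FPKM (log2 ratio 2.06), while its most abundant transcript had 44.1 and 140 FPKM (log2 ratio 1.64). CDC27, a subunit of the anaphase-promoting complex, had 48.2 and 10.2 FPKM (log2 ratio -2.14, and -1.82 after scaling).

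The proteasome and oxidative phosphorylation lists were also near the middle, with single genes far from it. Of 32 proteasome members, 2 (6.25%) were higher and 0 lower, against 7.48% and 2.97% of all mRNA members. Of the 32, 4 reached 10 FPKM in SCNT-8c alone, PSMA2 among them, and 2 in IVF-2c alone. These counts thus follow in part from the minimum. The list median lay 0.01 below that of all members, or -0.15 relative to it with FPKM summed per gene. The 2 higher ones, PSMA1 and PSMA2, encode subunits of the outer ring of the core particle. They had 30.6 and 8.96 FPKM in IVF-2c against 329 and 118 in SCNT-8c (log2 ratios 3.38 and 3.58). PSMA4, of the same ring, stood at 2056 and 879 FPKM (log2 ratio -1.23). Among 34 oxidative phosphorylation members, 1 was higher and 1 lower (2.94% each). The list median relative to that of all members was -0.12, with 14 members above the median of all and 20 below. NDUFA4 was the only one higher past the limit, with 238 FPKM in IVF-2c and 1179 in SCNT-8c (log2 ratio 2.30). NDUFA6, of respiratory complex I, was the only one lower, with 692 FPKM in IVF-2c, 169 in SCNT-8c and 420 in IVF-8c (log2 ratio -2.03, and -1.69 after scaling).

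Chaperones, apoptosis regulators and chromatin modifiers added few transcripts. HSPA5, the chaperone of the endoplasmic reticulum, had 12.7 FPKM in IVF-2c and 77.8 in SCNT-8c (log2 ratio 2.52), and HSPA4, a cytosolic chaperone of the HSP110 type, had 26.6 and 5.42 (log2 ratio -2.11, and -1.79 after scaling). These were the 2 of 29 chaperone members past the limit, 3.45% each way, against 7.48% higher and 2.97% lower of all mRNA members. Among the apoptosis regulators, for MDM4, an inhibitor of p53, XM_013970022.1 stood at 20.1 and 3.24 FPKM (log2 ratio -2.31) while XM_005690390.2 stood at 9.53 and 33.3 (log2 ratio 1.70). None of the 7 chromatin modifier members passed the limit, the largest being HAT1, a histone acetyltransferase, with 160 and 446 FPKM (log2 ratio 1.48). Of 86 listed modifiers, 19 were found in the table. Of the histone list 1 gene was found among the gene names, with no transcript in the table, and histones were not analysed here.

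Markers of other cell types were low, with a few exceptions. As with the fibroblast markers, their part in the differences was not tested. Of 25 listed cumulus and granulosa markers, 13 were in the table, their summed level was 115 FPKM in IVF-2c, 153 in SCNT-8c and 117 in IVF-8c, and INHA was listed at 0 in all 3 libraries. TNFAIP6, a hyaluronan-binding protein of the cumulus matrix, had 2.22 FPKM in IVF-2c, 51.2 in SCNT-8c and 26.6 in IVF-8c (log2 ratio 4.02), and STAR, which carries cholesterol into mitochondria, had 47.2, 12.4 and 11.4 (log2 ratio -1.84). Without this TNFAIP6 transcript the sum of the list would be lower in SCNT-8c than in IVF-2c. KITLG, its most abundant member in SCNT-8c, had 30.8, 57.5 and 44.4 FPKM (log2 ratio 0.88). Of the 5 members, 3 had a log2 ratio above 0 and 2 below. The fibroblast gene LUM, a matrix proteoglycan, had 3.56, 15.7 and 9.53 FPKM in the same order (log2 ratio 1.87, and 2.14 after scaling). Sperm markers summed to 11.7 FPKM in IVF-2c and 11.9 in SCNT-8c, and none of their 16 transcripts reached 10 FPKM. Among imprinted genes 2 were members, SNRPN with 19.3 and 8.92 FPKM and MEST with 21.9 and 14.9. Of 6 junction, keratin and polarity members, AQP11 was past the limit, with 0.0728 and 11.8 FPKM (log2 ratio 3.57).

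The most abundant mRNA in SCNT-8c was TMSB4X, the actin-binding peptide thymosin beta 4, with 172493 FPKM there, 126723 in IVF-2c and 176956 in IVF-8c (log2 ratio 0.44). CKS2, a small subunit of cyclin-dependent kinases, was among the 5 most abundant in SCNT-8c, with 25158 FPKM against 8985 in IVF-2c (log2 ratio 1.49). GAPDH, a glycolytic enzyme often used as a reference gene, had 194 FPKM in IVF-2c, 55.6 in SCNT-8c and 34.8 in IVF-8c (log2 ratio -1.78).

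The lncRNAs differed from the mRNAs chiefly in how often a transcript was listed at 0. Higher in SCNT-8c past the limit were 605 of 2474 lncRNA members (24.5%), and lower were 525 (21.2%). In the higher group 532 (87.9%) were listed at 0 in IVF-2c, and in the lower group 400 (76.2%) were listed at 0 in SCNT-8c. Of the 1542 lncRNA members above 0 in both libraries, 73 (4.73%) were higher and 125 (8.11%) lower. The excess of higher over lower lncRNAs thus came from transcripts listed at 0, and it was turned among those above 0 in both. Their median log2 ratio was -0.55, compared with -0.42 for all lncRNA members and -0.31 for the 6039 mRNA members above 0 in both libraries. At a log2 limit of 1, 715 of all lncRNA members were higher and 935 lower, so that the excess was turned there too.

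**Figure D5:**
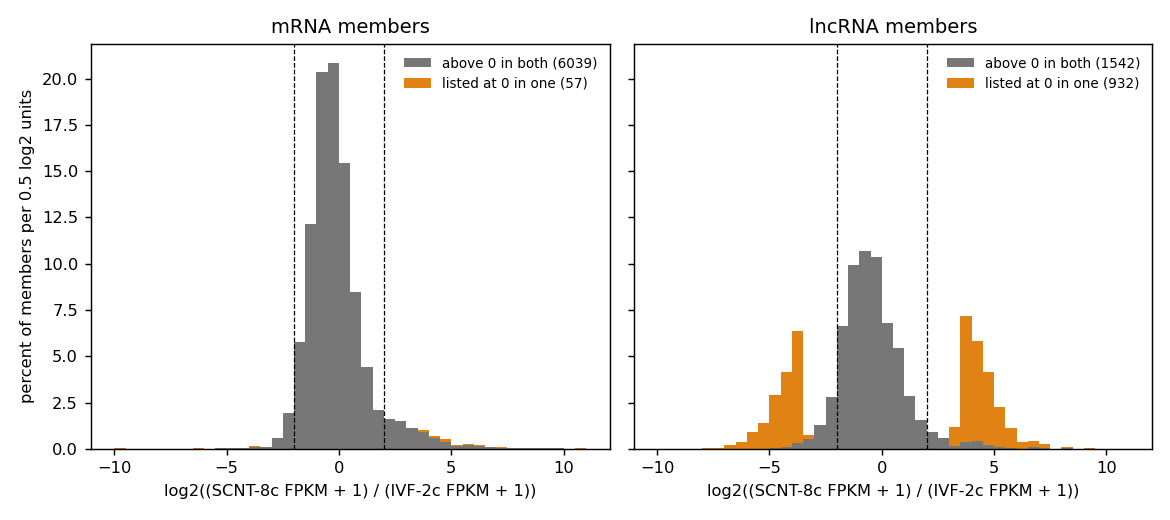
Distribution of the log2 ratio of SCNT-8c to IVF-2c among mRNA members (left) and lncRNA members (right), as percent of members per bin of 0.5, with transcripts above 0 in both libraries in grey, those listed at 0 in 1 library in orange and dashed lines at the limit, ratios beyond the axis being drawn in the end bins. Of the mRNAs 57 and of the lncRNAs 932 were listed at 0 in 1 library, and the 2 outer groups of lncRNAs consist mostly of these.

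Values of lncRNAs were often shared between transcripts. Of the 1743 lncRNAs with at least 10 FPKM in IVF-2c, 313 had exactly the value of another such lncRNA in the same library, and in SCNT-8c 377 of 1581 did. For mRNAs the same numbers were 50 of 5447 and 48 of 4985. Transcripts with equal values were counted singly and may not be independent of each other.

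The lncRNA with the largest ratio among those above 0 in both libraries was TCONS_00617831, with 1.03 FPKM in IVF-2c, 604 in SCNT-8c and 961 in IVF-8c (log2 ratio 8.22). TCONS_00288132 was listed at 0 in IVF-2c and had 540 FPKM in SCNT-8c and 1086 in IVF-8c. TCONS_00001341 had 157 FPKM in SCNT-8c and was listed at 0 in both IVF libraries. In the other direction TCONS_00128582 was listed at 0 in SCNT-8c, compared with 10.4 FPKM in IVF-8c and 232 in IVF-2c, and TCONS_00440474 had 152 FPKM in IVF-2c and was listed at 0 in both 8-cell libraries. The identifiers are those of the authors' assembly, and no positions or sequences of these transcripts were used here.

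The most abundant lncRNAs were largely shared. TCONS_00564872 led in SCNT-8c with 3454 FPKM and had 3209 in IVF-2c (log2 ratio 0.11), and TCONS_00593464 had 2635 and 3354 (log2 ratio -0.35). TCONS_00591854, first in IVF-2c with 4599 FPKM, had 1490 in SCNT-8c (log2 ratio -1.63). TCONS_00388928 had 3201 and 794 FPKM, at the limit with a log2 ratio of -2.01 and within it after scaling (-1.67).

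Of 6 lncRNAs that the study names, 1 was a member. TCONS_00343720, which the study calls lncRNA3720, had 0.257 FPKM in IVF-2c, 15.2 in SCNT-8c and 133 in IVF-8c (log2 ratio 3.69). The other 5 stayed under 2 FPKM in both IVF-2c and SCNT-8c and had between 7.91 and 32.0 FPKM in IVF-8c. The highest of them in SCNT-8c was TCONS_00562642, with 1.15 FPKM in IVF-2c and 1.93 in SCNT-8c. The study chose these transcripts on the libraries used here, so their order between libraries is a description.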

How the data were processed

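RNA from pools of 15 goat embryos was amplified as cDNA with a SMART-Seq v4 low-input kit before library preparation, per the labels. The submitters' processing notes name TopHat2 2.0.12, Bowtie2 2.2.3, Cufflinks 2.1.1 and Cuffdiff. The genome build and annotation release are not given in the sources used here. The authors deposited FPKM per mRNA accession and per assembled lncRNA, after filtering lncRNAs on length, exons, coverage and coding potential. FPKM gives no counts, so depth is unknown and no interval is given. Amplification and length scaling both affect FPKM, and levels are comparable between genes only per length. Columns without a sample numbered 0.

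Log2 ratios of FPKM + 1 were calculated in pandas 2.3.3 and numpy 2.4.6 under Python 3.11.15 for transcripts at 10 FPKM or more in either library. The calculation was tested on simulated data. Gene names came from the RefSeq table of ARS1.2, in which 13518 of 30147 accessions matched without their version (761 with it), and 3111 of the 6096 mRNA members (51.0%), from 2681 genes, and 269 of these transcripts were higher (8.65%) and 71 lower (2.28%). A gene missing from the table may therefore still have been expressed. No promoter, protein or genome sequence was used here.

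The members and 22 gene lists were chosen with earlier results of these data known. The named transcripts are the 10 named mRNAs with the largest and the 10 with the smallest ratio. Here each gene was ranked by its transcript with the largest absolute ratio, and genes with only a LOC number as name were left out. Up to 4 members of each list with the largest absolute ratio and the most abundant one per library were added. So were the 5 lncRNAs at each end, the 5 most abundant mRNAs and lncRNAs per library, and those the study names. Other transcripts were named after their values were seen, to show the spread within a list. ZSCAN4, RRM2, UBE2C, IPMK, MT2A and ACTB, which the study names, were not matched and were not analysed here. Alternatives were another pseudocount, minimum, limit and scaling, sums per gene, and omission of transcripts at 0.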

Additional observations from a re-analysis of the deposited data

How the results depend on the processing

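With 1 library per group, the differences have no replicate check, and no setting adds one. No paired analysis was possible because the compared groups hold 1 library each. No result changed direction from a ratio past the limit to the opposite side. Among the named values, median-ratio scaling left 133 on their side of the limit, brought 5 past it and 6 within it, and a pseudocount of 0.1 FPKM brought 3 past it and none within it. With a minimum of 1 FPKM, or with none, 1627 lncRNAs were higher and 1463 lower, and the lncRNA median was -0.22 at the minimum of 1. With a minimum of 30 FPKM, 265 mRNAs were higher and 82 lower, as were 140 and 127 lncRNAs. With a log2 limit of 1, 856 mRNAs were higher and 1273 lower, and 715 lncRNAs were higher and 935 lower. The larger side thus changed for mRNAs and for lncRNAs. Median-ratio scaling left 82 mRNAs lower and moved the medians to 0.087 for mRNAs and 0.141 for lncRNAs, above 0 where they had been below it. It gave 659 lncRNAs higher and 393 lower. Without transcripts listed at 0, 73 lncRNAs were higher and 125 lower, with a median of -0.55. Scaling each library to the same mRNA sum without XM_013971491.1, an alternative chosen after seeing the data, gave medians of -0.43 for mRNAs and -0.60 for lncRNAs. With it 436 mRNAs were higher and 233 lower, and 587 lncRNAs were higher and 582 lower. Of the 18 list medians relative to all mRNA members, 11 changed by more than 0.1 at a minimum of 1 FPKM, 8 with FPKM summed per gene, and 2 each under scaling and the pseudocount of 0.1. For the mitochondrial ribosomal proteins the median of 0.16 became 0.27 at that minimum and 0.29 per gene, and per gene it became -0.22 for the cell cycle list and -0.15 for the proteasome list. The list medians relative to all mRNA members changed sign in 2 cases, the cell cycle list (0.11 at a minimum of 1 FPKM) and the proteasome list (0.02 after scaling). Depth limits what a listed 0 means, and it is unknown here.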

Other observations

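Several further mRNAs had large ratios of SCNT-8c to IVF-2c. They lie outside the naming rule and were chosen after their values were seen. FOS, an immediate-early transcription factor, had 0.0543 FPKM in IVF-2c, 15.6 in SCNT-8c and 48.0 in IVF-8c, and SGK1, a kinase induced by serum and glucocorticoids, had 0.0125, 31.1 and 44.3. SP5, a transcription factor activated by WNT signalling, had 1.52, 128 and 84.2 FPKM for its more abundant transcript, and GABPA, an ETS factor with targets among nuclear genes for mitochondria, had 3.40, 67.0 and 41.0 for 1 of its 2 transcripts. TOMM5 and TIMM10B, of the mitochondrial protein import machinery, had 35.7 and 0.608 FPKM in IVF-2c against 763 and 24.4 in SCNT-8c, whereas GRPEL1, a cofactor of the import motor, had 277 and 53.6. TXN, the redox protein thioredoxin, had 112 FPKM in IVF-2c and 1333 in SCNT-8c.

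The next mRNAs were lower, and were also chosen after their values were seen. TYMS, which makes thymidylate, had 416 FPKM in IVF-2c, 60.5 in SCNT-8c and 56.2 in IVF-8c. RPA3, a subunit of replication protein A, had 154, 21.6 and 32.8 FPKM, and POLM, a repair polymerase, had 68.5, 12.9 and 9.29. Each of these 3 was lower past the limit, and in each the IVF-8c level was also below that of IVF-2c.

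Transcripts of 1 gene did not always move together. Of 339 genes with at least 2 mRNA members, the median gap between the largest and the smallest log2 ratio was 0.58, and 43 had a gap above 2. CNPY2 was the 1 gene with members past the limit on opposite sides. Its transcript XM_005680355.2 had 28.9 FPKM in IVF-2c and 4.31 in SCNT-8c, XM_005680356.2 had 12.8 and 0.00591, and XM_013963954.1 was listed at 0 in IVF-2c and had 17.3 in SCNT-8c.

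Some of the mRNAs with the highest levels past the limit had no gene name here. XM_005686730.2 had 815 FPKM in IVF-2c, 16776 in SCNT-8c and 22271 in IVF-8c, and XM_013964495.1 had 5.49, 3338 and 5957.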
